A study of Homo sapiens with 18 samples.

Results

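At day 18 of differentiation, SH-SY5Y cells given ZNHIT3 with a small deletion were compared with cells given wild-type ZNHIT3 (WT), across all genes whose FPKM averaged 1 or more. This took in 6 of the 18 RNA-seq libraries of the study, 3 per construct. Of 26372 gene symbols in the table, 13785 averaged 1 FPKM or more over the 18 libraries and were tested. Over the 6 libraries alone, 13739 would have passed, and 5814 symbols were listed at 0 in all 6. CASP8, with a mean of 1.00 FPKM, was the lowest symbol inside the limit, and C5orf56, with 0.9997 FPKM, the highest outside.

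SH-SY5Y is an established human neuroblastoma line that can be turned towards a neuron-like state. Cells grown in 15% fetal bovine serum were infected with lentivirus made from the FUGW plasmid, in which a ubiquitin promoter drives the insert. After 48 h they were moved to serum-free medium with 10 μM all-trans retinoic acid, 50 ng/ml BDNF, 20 mM KCl and 2 mM dibutyryl cyclic AMP, where they stayed for 18 days. The WT and deletion groups shared all of these agents, and each also had the cells' own ZNHIT3 gene. Another construct, carrying the C14R substitution, and the day 0 libraries are used below only for reference. The labels do not say that replicates came from separate cultures, so p-values measure the spread between these libraries, which may be technical.

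ZNHIT3 is a small protein with a HIT-type zinc finger. It works with NUFIP1 and the HSP90-linked R2TP chaperone complex in building box C/D snoRNPs (small nucleolar ribonucleoproteins). In these particles a small nucleolar RNA (snoRNA) guides 2′-O-methylation of ribosomal RNA or takes part in its cleavage. Most human snoRNAs are cut from the introns of host genes. The series title ties ZNHIT3 variants to faulty snoRNP assembly, and the comparison asks how the transcriptome of differentiated cells differs when the delivered ZNHIT3 carries the deletion.

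The deleted bases are shown because the labels disagree on them. By treatment label, replicate 1 carries ∆251-254, replicate 2 ∆251-255 and replicate 3 ∆251-256, whereas the series' design speaks of ∆251-254 for the construct. Sample titles use the word depleted. The labels do not say from where the positions are counted. Counted from the first base of the coding sequence of one annotated transcript (465 coding bases or 155 codons in 5 coding exons, GENCODE release 29 on GRCh38), bases 251 to 254 lie in exon 4 at chr17:36493971-36493974, plus strand, in codons 84 and 85. The window below spans coding bases 221 to 284, chr17:36493941-36494004, with bases 251 to 254 in capitals.
ZNHIT3 coding bases 221 to 284: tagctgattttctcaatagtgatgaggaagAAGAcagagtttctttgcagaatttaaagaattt
Removing the 4 capital bases from the annotated sequence shifts the reading frame and puts the first stop at codon 91. Removing 5 bases would put it at codon 151, and removing 6 bases, which keeps the frame, at codon 154. These are readings of the reference sequence, and the sequence of the delivered constructs was not read. The 3 libraries were kept as 1 group.

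Relative sequencing depth at day 18, read from the smallest steps between low FPKM values, lay between 85.6% and 100% of the deepest library in WT and between 82.0% and 99.2% in deletion libraries. The absolute depth is unknown. Small RNA genes took 47.3% to 60.5% of the summed FPKM in WT and 53.4% to 55.5% in deletion libraries, and SNORD3A (U3) alone took 7.21% to 15.1% and 8.12% to 8.27%. Between 33 and 41 of the tested genes were listed at 0 in each library. Among the C14R libraries of day 18, which enter the fit only through the shared estimate of spread, replicate 1 stood apart, with 31.4% small RNA against 51.5% and 52.1%. Across tested genes, log2(FPKM + 1) correlated at 0.992 to 0.993 between WT libraries, at 0.990 to 0.994 between deletion libraries and at 0.988 to 0.993 between the groups, so pairs between groups overlapped with pairs within them.

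ZNHIT3 itself (chromosome 17, 36486629 to 36499310, plus strand, protein-coding) was much lower in deletion libraries. It had 1193, 1164 and 1103 FPKM in WT and 298, 313 and 294 FPKM in deletion libraries. The highest deletion library lay far below the lowest WT library. The deletion mean of 301.5 ± 9.89 (SD, n = 3) was 26.1% of the WT mean of 1153 ± 46.1, which on the log2 scale is -1.93 with an SE of 0.07 (limma adjusted p = 1.3e-11). An exact two-sided permutation test of the 3 against 3 libraries gave p = 0.1, the smallest value its 20 relabelings allow. C14R libraries had 599.7, 756 and 604 FPKM, between both groups. The value adds up delivered and endogenous transcripts, so it does not say which kind was lower. MYO19, which overlaps ZNHIT3 on the opposite strand over 3678 bp, had 6.81 ± 0.42 FPKM in WT and 7.19 ± 0.72 in deletion libraries.

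ZNHIT3 differed less at day 0, where WT had 538 ± 6.33 and deletion libraries 302.5 ± 9.40 FPKM (log2 change -0.83). The difference between the days was itself past the threshold, with an interaction of -1.10 (SE 0.09, limma adjusted p = 1.1e-05). The deletion mean was about the same on both days, while the WT mean at day 18 was above that of day 0.

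STK19 (chromosome 6, 31971091 to 31982821, plus strand, protein-coding), which lies in the crowded class III region of the major histocompatibility complex, had values in deletion libraries and almost none in WT. It had 3.83, 3.24 and 3.65 FPKM in deletion libraries, 0.313 FPKM in WT replicate 1 and was listed at 0 in WT replicates 2 and 3. All 3 C14R libraries of day 18 were listed at 0. The log2 change on the log2(FPKM + 1) scale was 2.06 (SE 0.12, limma adjusted p = 2e-08). At day 0 the pattern was the opposite: WT had 3.09, 2.80 and 3.19 FPKM, C14R had 2.40, 2.90 and 1.95, and all 3 deletion libraries were listed at 0. The interaction of 4.07 (SE 0.16, limma adjusted p = 1.9e-10) thus joined a difference of -2.01 at day 0 and one of 2.06 at day 18.

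The annotation of STK19 shares 1202 bp with DXO and 798 bp with C4A, and how the authors' tool divided reads between overlapping genes is not given in the sources used here. DXO, an RNA decapping enzyme on the opposite strand, had 6.97 ± 1.16 FPKM in WT and 6.50 ± 0.59 in deletion libraries at day 18. C4A, a complement component, had 0.24 ± 0.05 and 0.19 ± 0.02 FPKM, below the limit for testing. C4B, its near-identical copy, was listed at 0 in all 18 libraries. SKIV2L, an RNA helicase gene of the same region, had 7.27 ± 0.30 and 7.27 ± 0.75 FPKM. Neither DXO nor SKIV2L passed the threshold at day 18 (limma adjusted p = 0.84 and 0.99). The STK19 value is given as uncertain.

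**Figure D1:**
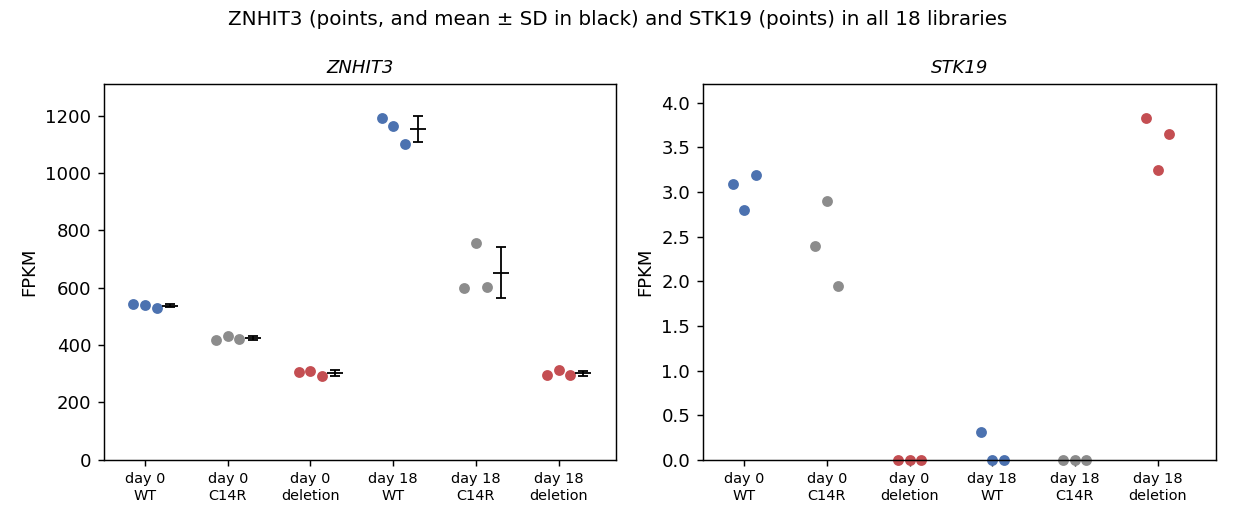
FPKM of ZNHIT3 (left) and STK19 (right) in each of the 18 libraries, by day and construct, with both axes starting at 0; black marks give mean ± SD for ZNHIT3 only. ZNHIT3 is lowest in deletion libraries on both days, and STK19 is listed at 0 in all deletion libraries of day 0 but lies between 3.24 and 3.83 FPKM in those of day 18.

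Beyond ZNHIT3 and STK19, the constructs differed by small amounts. Of the 13785 tested genes, 10 (0.0725%) passed a limma adjusted p of 0.05, 5 higher and 5 lower in deletion libraries, and the libraries of the 2 groups did not overlap in any of the 10. A total of 7140 genes had a positive and 6634 a negative log2 change, with a median of 0.00 and a median SE of 0.08. The interquartile range ran from -0.06 to 0.08. An absolute log2 change of at least 0.5 was reached by 66 genes, or 0.479%. At an unadjusted p of 0.05, 795 genes (5.77%) were higher and 781 (5.67%) lower. The 3 deletion libraries all lay above the 3 WT libraries in 1431 genes (10.4%) and all below in 1176 (8.53%).

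**Figure D2:**
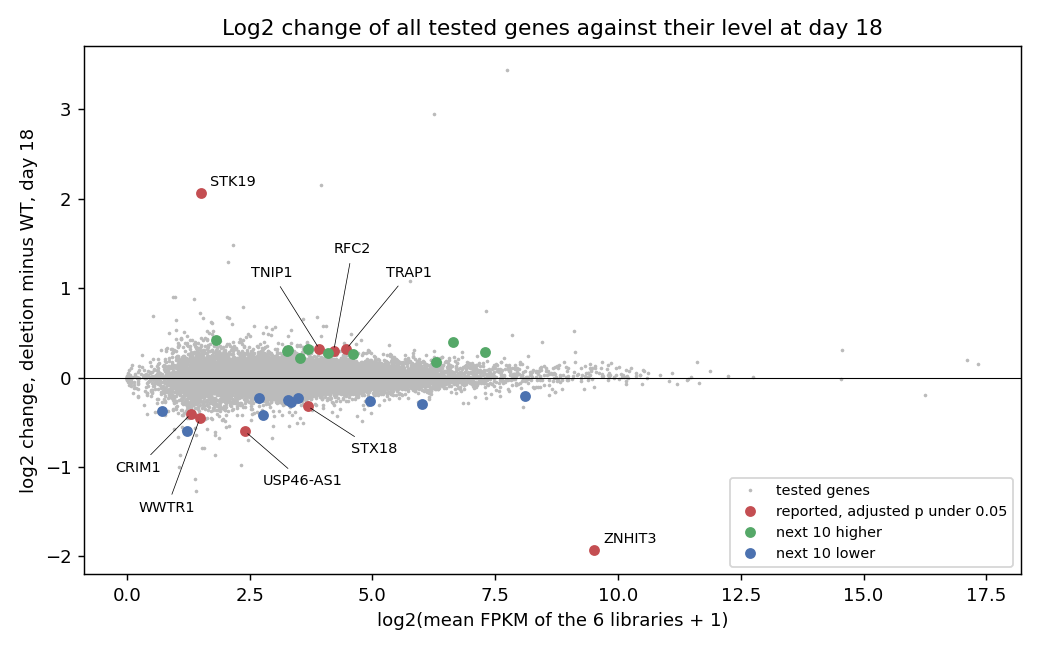
Log2 change between deletion and WT at day 18 (vertical) against the level of each tested gene, as log2 of its mean FPKM over the 6 libraries plus 1 (horizontal). Among the coloured genes, ZNHIT3 at -1.93 and STK19 at 2.06 lie farthest from 0 and the others between -0.60 and 0.42; a few grey points are higher than STK19, among them MIR3180-5 at 3.44, whose value comes from 1 library.

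The number past the threshold changed with the libraries held in the fit, and the reason was not tested. When the fit held the 6 libraries alone, 2 genes passed, ZNHIT3 and STK19. Leaving out WT replicate 1, 2 or 3 left 4, 2 and 2 genes, and leaving out deletion replicate 1, 2 or 3 left 2, 4 and 3. Without C14R replicate 1 of day 18, which is not part of the comparison, 51 genes passed. ZNHIT3 and STK19 passed in each alternative that tested them. The other 8 genes each failed in some. Of these 8, 7 are described next, each with an adjusted p between 0.042 and 0.047.

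TRAP1, TNIP1 and RFC2 rose by about the same proportion. TRAP1, the HSP90 family member of mitochondria, had 19.4, 18.9 and 17.9 FPKM in WT and 25.4, 21.9 and 23.7 in deletion libraries. Every deletion library was above every WT library, and the deletion mean was 126% of the WT mean (log2 change 0.32, SE 0.06, limma adjusted p = 0.042). TNIP1, which encodes a partner of the ubiquitin-editing protein A20 that restrains NF-κB signalling, had 13.3, 11.9 and 12.3 FPKM in WT and 16.0, 16.0 and 15.5 in deletion libraries (126% of WT, log2 change 0.32, SE 0.05). RFC2, a subunit of replication factor C, the complex that loads the sliding clamp PCNA onto DNA, had 15.1, 15.6 and 16.2 FPKM in WT and 20.6, 19.8 and 18.0 in deletion libraries (125% of WT, log2 change 0.30, SE 0.05). Its 2 groups also did not overlap. TRAP1 lies on chromosome 16 (3651639 to 3717597, minus strand) and overlaps DNASE1 over 28505 bp. TNIP1 lies on chromosome 5 (151029945 to 151093577, minus strand) and RFC2 on chromosome 7 (74231499 to 74254458, minus strand), neither with an overlapping annotated gene.

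The protein-coding genes that fell were WWTR1, CRIM1 and STX18. WWTR1 encodes TAZ, a transcriptional coactivator that binds TEAD factors and is held in check by the Hippo pathway. It had 2.09, 2.36 and 2.28 FPKM in WT and 1.42, 1.47 and 1.195 in deletion libraries (60.8% of WT, log2 change -0.46, SE 0.08, limma adjusted p = 0.042). CRIM1, a membrane protein with cysteine-rich repeats that bind bone morphogenetic proteins, had 1.84, 1.89 and 1.70 FPKM in WT and 1.12, 1.34 and 0.90 in deletion libraries (62.0% of WT, log2 change -0.41, SE 0.07). Both were low in all libraries of day 18, and the log2(FPKM + 1) scale understates their proportional change. At day 0 both were higher in every library, CRIM1 by far the more. STX18, an endoplasmic reticulum SNARE protein that receives vesicles returning from the Golgi, was better expressed, with 13.2, 13.7 and 12.8 FPKM in WT and 10.2, 10.8 and 10.2 in deletion libraries (78.6% of WT, log2 change -0.32, SE 0.06). In all 3 genes each deletion library lay below each WT library.

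WWTR1 lies on chromosome 3 (149517235 to 149736714, minus strand) and overlaps its antisense gene WWTR1-AS1 over 4345 bp. CRIM1 (chromosome 2, 36355926 to 36551135, plus strand) overlaps FEZ2 over 19331 bp, and STX18 (chromosome 4, 4415742 to 4542346, minus strand) overlaps NSG1 over 3317 bp. The use of strand in counting is not given in the sources used here, so values of overlapping genes are uncertain.

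The long noncoding RNA gene USP46-AS1 (chromosome 4, 52659406 to 52661668, plus strand) fell as well. It had 5.02, 5.22 and 5.91 FPKM in WT and 3.72, 3.14 and 2.80 in deletion libraries (59.8% of WT, log2 change -0.60, SE 0.11, limma adjusted p = 0.047). USP46, the ubiquitin protease gene it is named after, had 8.27 ± 0.40 FPKM in WT and 8.56 ± 0.18 in deletion libraries (log2 change 0.04, limma adjusted p = 0.78). The noncoding RNA passed the threshold and the protease gene did not.

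**Figure D3:**
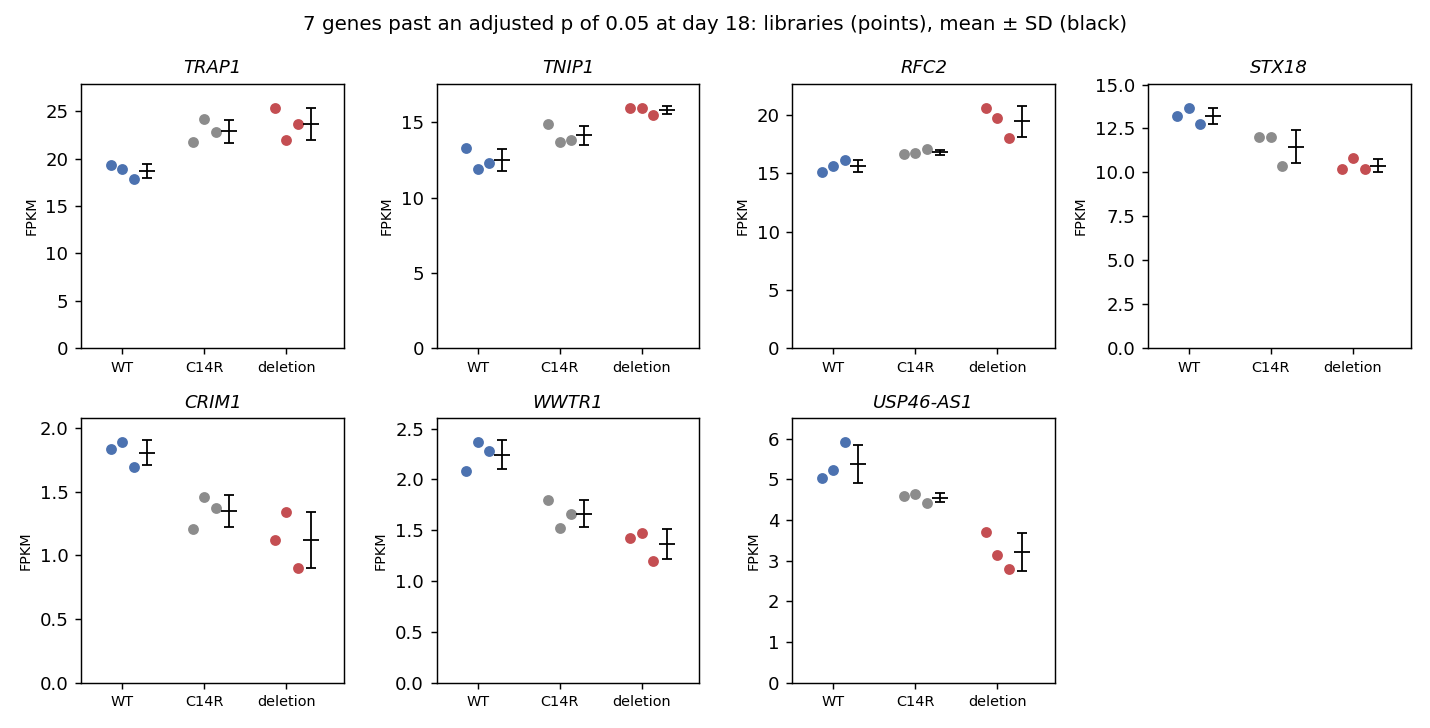
FPKM of 7 genes past the threshold in the 9 libraries of day 18, by construct, with mean ± SD in black and each axis starting at 0. The 3 genes that rose are TRAP1, TNIP1 and RFC2, the 4 that fell are STX18, CRIM1, WWTR1 and USP46-AS1, and no deletion library overlaps with WT.

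At day 0, none of these 7 genes had an unadjusted limma p under 0.05 between deletion and WT, with log2 changes of -0.04 to 0.09. The day 0 comparison had 4 genes (0.029%) past the threshold. Whether the 7 differed more at day 18 than at day 0 was tested by the interaction, which 2 genes (0.0145%) passed, ZNHIT3 and STK19. None of the 7 passed it, with adjusted p between 0.20 and 0.40 and an unadjusted p under 0.05 in all 7. The 7 were chosen for a small p at day 18, and the day 18 difference is part of the interaction. The choice thus favoured small unadjusted p-values, and their count cannot decide whether the 7 depend on the day. Against C14R at day 18, 4 genes (0.029%) passed in deletion libraries, again none of the 7 (adjusted p 0.35 to 0.75). C14R against WT at day 18 had 5 genes (0.0363%) past the threshold. It shares its WT libraries with the deletion comparison, so the C14R values are set beside it only as levels: TRAP1 had 22.9 ± 1.22 FPKM in C14R, STX18 11.5 ± 0.95 and WWTR1 1.66 ± 0.13.

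The genes next to the threshold were taken in order of unadjusted p among those whose groups did not overlap, 10 in each direction, and none of them passed. The separation of their groups was thus part of the choice. On the higher side (adjusted p 0.054 to 0.13, log2 changes 0.18 to 0.42) several had to do with the cell cycle or chromatin. FAM64A, a regulator of mitotic progression, had 1.84, 2.15 and 2.05 FPKM in WT and 3.65, 2.76 and 2.77 in deletion libraries. MYBL2, a transcription factor that drives cell cycle genes, had 9.52, 10.00 and 9.27 FPKM in WT and 10.9, 11.3 and 11.9 in deletion libraries. Its C14R libraries of day 18 had 11.9, 12.3 and 12.6 FPKM, with a mean above that of the deletion libraries. The replication-dependent histone gene HIST1H2BL had 92.7, 82.5 and 78.9 FPKM against 130.3, 105.3 and 102.5, and HIST1H1B, a linker histone, had 153.8, 140.6 and 129.4 against 177.8, 171.1 and 166.0. Deletion replicate 1 was the highest WT or deletion library in both histone genes.

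Others on the higher side belong to neurons or to ribosome production. KIF5A, a kinesin motor of axons, had 73.3, 72.2 and 72.9 FPKM in WT and 81.2, 83.6 and 82.3 in deletion libraries, a small shift with very little spread (log2 change 0.18, SE 0.04). SLC6A2, the noradrenaline transporter, had 7.36, 7.77 and 7.93 FPKM against 10.5, 8.77 and 10.0. DTNBP1 (dysbindin), part of a complex that builds lysosome-related organelles, had 10.5, 10.9 and 10.1 against 13.9, 12.9 and 13.3. RRP1, a nucleolar protein of large ribosomal subunit maturation, had 7.85, 7.94 and 6.91 against 9.67, 9.89 and 9.04. SOGA1 and RALGDS, an exchange factor for Ral GTPases, completed this side with deletion means of 122% and 121% of WT.

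On the lower side (adjusted p 0.059 to 0.098, log2 changes -0.60 to -0.21) the most abundant gene was HSP90B1, the HSP90 of the endoplasmic reticulum, with 289, 295 and 304 FPKM in WT and 244, 263 and 264 in deletion libraries. HSP90B1 did not pass the threshold, whereas TRAP1, its mitochondrial relative, passed it in the other direction. Genes of the cell surface and matrix were also among the 10. FAP, a membrane protease of activated fibroblasts, had 2.03, 1.49 and 1.89 FPKM in WT and 0.82, 1.15 and 0.62 in deletion libraries. HAS2, which makes hyaluronan, had 0.88, 0.92 and 0.74 against 0.38, 0.51 and 0.38, and IL13RA1, an interleukin 13 receptor chain, had 9.60, 9.41 and 9.86 against 7.62, 8.54 and 7.55. FAP and HAS2 were near the lower limit of the table, where small differences in FPKM make large proportions. HAS2 was below 1 FPKM in all 6 libraries, and a limit set on these 6 alone would have left it untested. It was tested because of its day 0 values, with means of 10.6 FPKM in WT and 11.9 in deletion libraries.

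The remaining lower genes had various roles. TGIF1, a homeodomain repressor in TGF-β and retinoic acid signalling, had 8.03, 6.65 and 5.84 FPKM in WT and 4.19, 5.202 and 5.14 in deletion libraries. ANAPC4, a subunit of the anaphase-promoting complex, had 9.97, 10.3 and 10.1 against 7.86, 8.67 and 8.14, while C14R libraries had 10.5, 10.5 and 10.1. PDE5A, a phosphodiesterase for cyclic GMP, had 6.01, 6.05 and 5.97 against 4.84, 5.14 and 4.97. TCEB1, an elongin subunit, TMEM64 and the antisense RNA HIF1A-AS2 had deletion means of 82.9%, 84.3% and 81.5% of WT. HIF1A-AS2 overlaps HIF1A over 32702 bp, so its value is uncertain.

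**Figure D4:**
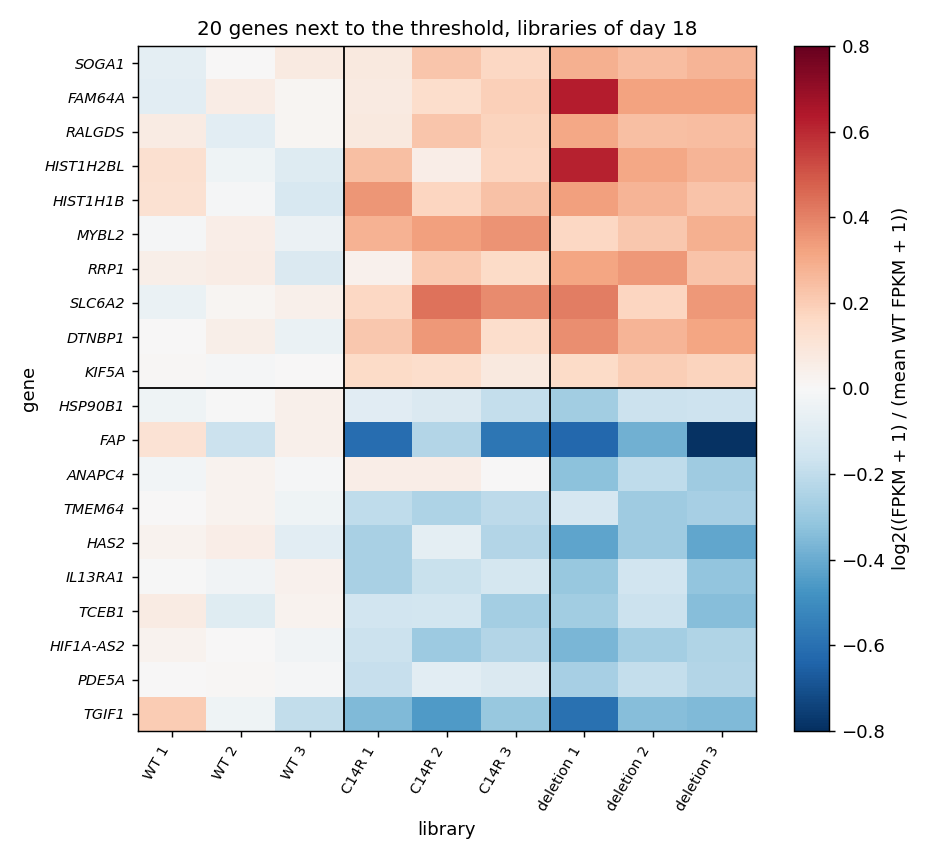
The 10 higher and 10 lower genes next to the threshold in the 9 libraries of day 18, coloured by the log2 ratio of FPKM + 1 in each library to the WT mean + 1. None of the 20 passed the threshold, and the rows were chosen so that deletion libraries lie on one side of WT.

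Gene lists were described by counts and medians, without a test. Some lists share members, such as NEFL in neuronal maturation genes and neuron markers, and COL3A1 in fibroblast markers and collagens. Leans of such lists are therefore not separate observations. For all 13785 genes the median log2 change was 0.00 and the counts at an unadjusted p of 0.05 and of full separation are those given above. The snoRNP lists had medians near that of all genes, and snoRNA host genes leaned lower by about the spread between replicates. Of the 6 HIT zinc-finger proteins, all tested, ZNHIT3 was the only one past the threshold. ZNHIT6, another factor in box C/D snoRNP assembly, had 5.99 ± 0.06 FPKM in WT and 5.71 ± 0.44 in deletion libraries. The 16 tested genes of the box C/D snoRNP core and assembly (which include the R2TP complex) had a median of -0.01, with 0 higher and 3 lower at an unadjusted p of 0.05. The 3 became 0 without WT replicate 3 or deletion replicate 1, and 1 without deletion replicate 2. The 9 tested box H/ACA snoRNP genes had a median of 0.00 and none at that level. The 30 tested snoRNA host genes had a median of -0.05, with 7 positive and 23 negative changes, 3 of them lower at an unadjusted p of 0.05: SNHG15 (16.9 ± 2.49 to 13.1 ± 2.06 FPKM), SNHG20 and ZFAS1. Without deletion replicate 2 the 3 became 5. Between replicates, the median of the host genes had an SD of 0.05, about the size of the lean. In C14R libraries of day 18, which share the same WT libraries, this median was -0.06. At day 0, between deletion and WT, it was 0.007. None of these lists had a member past the threshold other than ZNHIT3.

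Cytosolic ribosomal protein genes leaned slightly towards higher values, and other ribosomal lists had medians near that of all genes. The 56 tested genes of ribosome biogenesis and RNA polymerase I had a median of -0.01 and 1 higher and 2 lower at an unadjusted p of 0.05 (3 higher without WT replicate 1 or 2, 4 lower without WT replicate 3, and 2 higher without C14R replicate 1 or any deletion replicate). The 82 tested cytosolic ribosomal protein genes had a median of 0.04, with 68 positive and 14 negative changes and 12 higher at that level. RPS2, for example, had 879 ± 52.96 FPKM in WT and 985 ± 12.4 in deletion libraries (unadjusted p = 0.0071, limma adjusted p = 0.26). The deletion libraries lay fully above WT in 11 of the 82 (13.4%, against 10.4% of all genes), and 1 gene fully below (1.22%, against 8.53%). The list's median was also 0.04 between deletion and WT at day 0. In C14R libraries of day 18, which share the same WT libraries, it was 0.05. Between replicates, the median of the list had an SD of 0.06, which is larger than the lean. None passed the threshold. The count of 12 became 26 without WT replicate 1, 6 without WT replicate 2 and 2 without WT replicate 3. It became 6 without deletion replicate 1, 5 without deletion replicate 2 and 19 without C14R replicate 1, and ranged from 1 to 27 over all alternative fits. The 77 mitochondrial ribosomal protein genes had a median of 0.01.

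Most snoRNAs could not be assessed from these values. Of 269 box C/D snoRNA symbols, 5 were tested and 265 were listed at 0 in all 6 libraries. Of 107 box H/ACA snoRNA symbols, 8 were tested and 99 were at 0. SNORD17 had 505, 495 and 360 FPKM in WT and 723, 609 and 610 in deletion libraries (log2 change 0.52, limma adjusted p = 0.21), with no overlap. SNORA53 had 135, 74.5 and 155.5 FPKM against 184, 169 and 237 (log2 change 0.74, limma adjusted p = 0.25). SNORD3A (U3), which acts in the early cleavage of ribosomal RNA, was the most abundant and varied widely within WT, with 149397, 63498 and 51130 FPKM against 67914, 70721 and 67978. None of the tested snoRNAs passed the threshold.

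Genes of proliferating cells leaned towards higher values in deletion libraries, none past the threshold. Of 36 tested proliferation genes, 31 had a positive log2 change, 13 were higher and 0 lower at an unadjusted p of 0.05, and in 11 the deletion libraries all lay above WT. Their median log2 change was 0.12. The MCM helicase subunits were among the 13: MCM5 had 4.08 ± 0.33 FPKM in WT and 5.08 ± 0.47 in deletion libraries, MCM6 11.4 ± 0.57 and 13.2 ± 0.86, and MCM2 6.14 ± 0.80 and 7.27 ± 0.43. The mitotic cyclin CCNB2 had 6.65 ± 0.47 and 7.93 ± 0.68. The count of 13 became 7 when the fit held the 6 libraries alone, 8 without WT replicate 3 and 6 without deletion replicate 1. In C14R libraries, which share the same WT libraries, the median was 0.20, and at day 0, between deletion and WT, it was -0.03.

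Clustered histone genes, a list chosen after their values had been seen, leaned towards higher values by about the spread between replicates. Of 61 tested, 50 had a positive and 11 a negative change, with 16 higher and 1 lower at an unadjusted p of 0.05 and a median of 0.13. None passed the threshold, and the 16 became 26 without WT replicate 1 and 8 without WT replicate 3. HIST1H1E had 188 ± 16.6 FPKM in WT and 218 ± 10.4 in deletion libraries, and HIST1H4F, the 1 that was lower, had 171 ± 10.1 and 147 ± 8.21. Between replicates, the median of the list had an SD of 0.11, near the size of the lean. The median in C14R libraries was 0.03, and at day 0, between deletion and WT, it was 0.05. These genes are multicopy and near-identical, so their single values are uncertain.

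Neuronal genes also leaned towards higher values. Of 30 tested synaptic vesicle genes, 28 had a positive change, 6 were higher and 0 lower at an unadjusted p of 0.05, and 13 had deletion libraries fully above WT, with a median of 0.09. The 6 became 3 without WT replicate 3 or any 1 deletion replicate. BSN (bassoon), a scaffold of the presynaptic active zone, had 5.14 ± 0.14 FPKM in WT and 5.88 ± 0.11 in deletion libraries. SLC18A3, the vesicular acetylcholine transporter, had 13.4 ± 1.96 and 16.7 ± 0.60. Of 37 tested genes of neuronal maturation, 30 had a positive change, with 10 higher and 3 lower at that level and a median of 0.07. The 10 became 6 without WT replicate 3, and the 3 became 1 without deletion replicate 1. NEFL, the light neurofilament subunit, had 209 ± 1.16 and 226 ± 2.10 FPKM, and the neuropeptide gene NPY 502 ± 45.0 and 614 ± 46.8. The 3 lower ones were SCG2, ELAVL4 and VIP: SCG2, a secretogranin of dense-core granules, had 444 ± 19.5 and 396 ± 14.3 FPKM. None of these genes passed the threshold (smallest limma adjusted p = 0.18, for NPY and NEFL). In C14R libraries, which share the same WT libraries, the medians were 0.03 for synaptic vesicle and 0.06 for neuronal maturation genes. At day 0, between deletion and WT, they were -0.005 and -0.01.

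Endoplasmic reticulum chaperones and folding enzymes leaned the other way. This list was chosen after the values had been seen, HSP90B1 being on it. Of 30 tested genes, 25 had a negative change, 12 were lower and 1 higher at an unadjusted p of 0.05, 13 had deletion libraries fully below WT, and the median was -0.09. The 12 became 7 without deletion replicate 1. HSPA5 (BiP), the main HSP70 of this compartment, had 72.4, 74.4 and 79.7 FPKM in WT and 57.8, 68.1 and 65.6 in deletion libraries (log2 change -0.24, limma adjusted p = 0.12). PDIA6, a disulphide isomerase, had 116, 116 and 118 against 100.2, 107 and 107 (limma adjusted p = 0.098). CALR (calreticulin) had 232, 228 and 229.5 against 196, 216 and 208, and XBP1, a transcription factor of the unfolded protein response, 35.9, 34.7 and 37.1 against 29.2, 32.4 and 32.4. In each of these 4 genes deletion replicate 1 was the lowest library. CANX and HYOU1 had log2 changes of -0.05 and -0.03. The list's median in C14R libraries was -0.07 and at day 0 it was 0.01.

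Genes of the integrated stress response leaned lower, and none of the stress, damage or retinoic acid genes described here passed the threshold. Of 27 tested genes of the integrated stress response, the programme run by ATF4, 20 had a negative change and 6 were lower at an unadjusted p of 0.05, none higher, with a median of -0.05. The 6 became 3 without deletion replicate 1. In C14R libraries, which share the same WT libraries, the median was -0.10, and at day 0, between deletion and WT, it was -0.003. DDIT3 (CHOP) had 21.9 ± 2.59 FPKM in WT and 16.8 ± 1.25 in deletion libraries (limma adjusted p = 0.15), and ASNS, asparagine synthetase, 41.0 ± 2.37 and 36.5 ± 1.60. Of 26 tested p53 targets, 4 were lower and 0 higher at that level, with a median of -0.04. The one with the smallest p was PLK2, with 19.4 ± 0.79 and 14.6 ± 0.70 FPKM (limma adjusted p = 0.16). Of 19 tested genes of the retinoic acid response, 9 had a positive and 10 a negative change, with 2 lower and 0 higher at an unadjusted p of 0.05 and a median of -0.02. Without C14R replicate 1 the 2 became 4, and without WT replicate 1 or deletion replicate 1 it was 1. In C14R libraries the medians were -0.06 for p53 targets and -0.14 for retinoic acid genes. Deletion libraries lay fully below WT in 7 of the 19, against 8.53% of all genes, and fully above in 0. CYP26A1, an enzyme that breaks down retinoic acid, had 125 ± 7.43 and 103 ± 8.16 FPKM. The 23 tested genes of cholesterol synthesis had a median of 0.01.

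In the families of TRAP1 and WWTR1, no other member passed the threshold. Of 27 tested HSP90 and mitochondrial chaperone genes, TRAP1 passed, 4 were higher and 3 lower at an unadjusted p of 0.05, and the median was 0.02. The 4 became 1 without WT replicate 3 or deletion replicate 1, and 2 without deletion replicate 2 or 3. Of 24 tested genes of the TAZ, YAP and TEAD axis, WWTR1 passed, 1 was higher and 5 lower at that level, and the median was -0.03. The 5 became 2 without WT replicate 3 and 3 without deletion replicate 1 or 3, and the 1 became 2 without WT replicate 2 or C14R replicate 1. CYR61, a matrix protein gene driven by TEAD factors, had 1.75 ± 0.15 FPKM in WT and 1.20 ± 0.22 in deletion libraries. YAP1, the paralogue of TAZ, had 0.45 ± 0.09 and 0.42 ± 0.08 FPKM.

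Marker levels stood beside these differences as follows. Noradrenergic neuroblast genes, which mark the labelled line, were abundant, among them HAND2, a transcription factor of the sympathetic lineage, with 273 ± 10.5 FPKM in WT and 295 ± 4.78 in deletion libraries. TH, the first enzyme of catecholamine synthesis, was an exception at 0.53 ± 0.29 and 0.71 ± 0.06 FPKM. The 10 neuroblast (N-type) markers summed to 2150 to 2253 FPKM in WT and 2200.0 to 2319 in deletion libraries, with 4 of 9 tested higher at an unadjusted p of 0.05. The 4 became 1 without WT replicate 3 and 2 without WT replicate 2 or deletion replicate 3. The 10 neuron markers summed to 2073 to 2094 and 2156 to 2231, without overlap, with 2 of 9 higher (4 without C14R replicate 1, 1 without deletion replicate 3). RBFOX3 was below 1 FPKM. The median log2 change was 0.09 for N-type and 0.07 for neuron markers. In C14R libraries, which share the same WT libraries, it was 0.12 and 0.09. At day 0, between deletion and WT, it was -0.02 and -0.04.

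Neuroblastoma lines also hold substrate-adherent, mesenchymal (S-type) cells. Their 10 markers summed to 67.1 to 68.1 FPKM in WT and 65.5 to 69.0 in deletion libraries, with PRRX1, COL1A2, FOSL1 and YAP1 below 1 FPKM and 2 of 8 tested (FN1 and COL1A1) lower and 0 higher at an unadjusted p of 0.05. Without deletion replicate 3 this became 0 lower and 1 higher, without WT replicate 1 or 2 it was 1 lower and 1 higher, and without C14R replicate 1 it was 2 lower and 1 higher. The 5 fibroblast markers summed to 66.3 to 72.4 and 56.8 to 65.0, without overlap, with 3 lower at that level. These were COL3A1 (28.6 ± 1.57 FPKM in WT, 21.2 ± 3.13 in deletion libraries), DCN (3.62 ± 0.22, 2.47 ± 0.33) and LUM. PDGFRB and THY1 had log2 changes of -0.03 and 0.06. The median of the 5 fibroblast markers was -0.28, and in C14R libraries, which share the same WT libraries, it was -0.22. At day 0, between deletion and WT, it was 0.07. Of 7 Schwann or glial markers, which summed to 9.89 to 10.5 and 9.11 to 10.9, SOX10, GFAP and FABP7 were below 1 FPKM, with FABP7 at 0 in all 6 libraries. In bulk RNA, fewer cells of a type and less RNA per cell cannot be told apart. The part of these marker differences in the lower WWTR1, CRIM1 and FAP values, and in the higher neuronal and proliferation genes, was not tested.

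**Figure D5:**
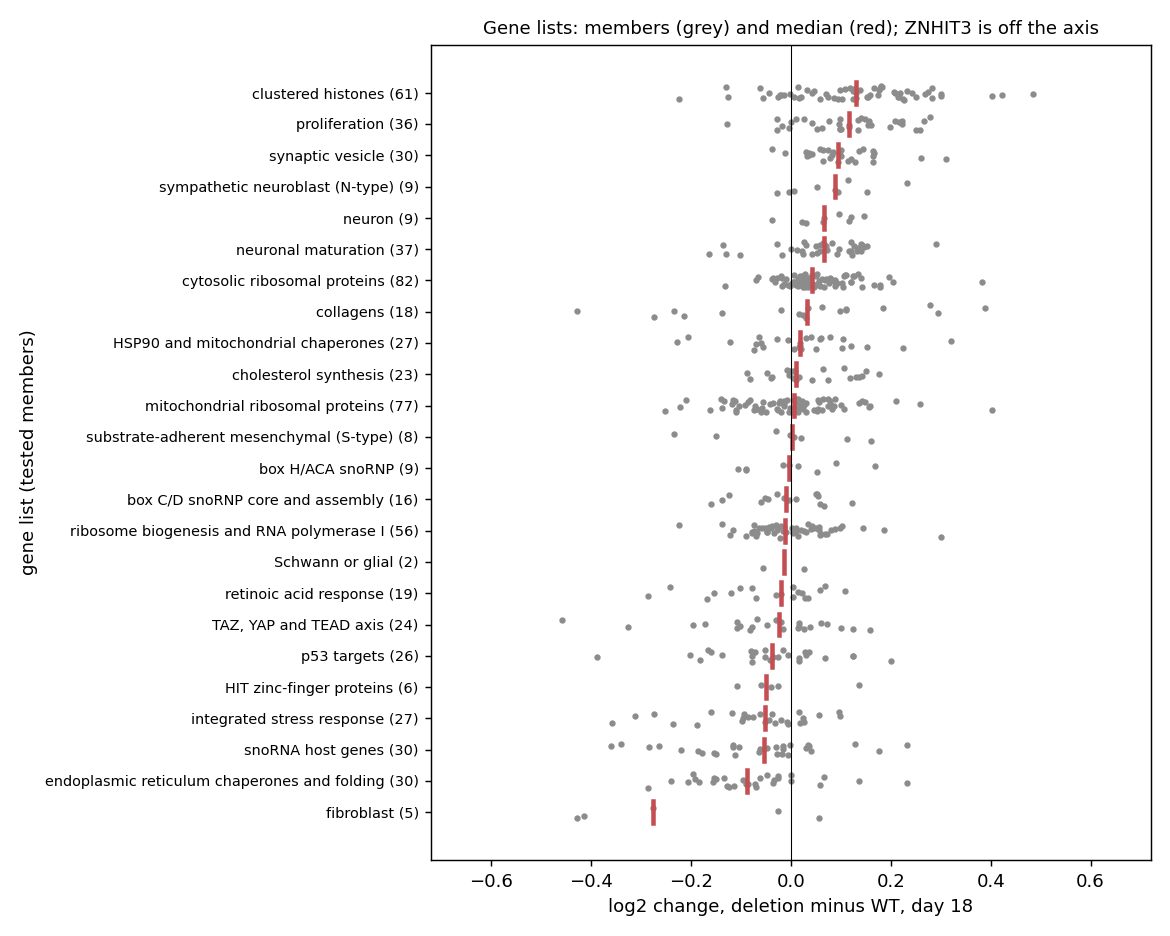
Log2 change between deletion and WT at day 18 for the tested members of each gene list other than the snoRNA, scaRNA and other small RNA lists, which are left out (grey points; number tested in brackets), with the list's median (red bar). Among the lists drawn, medians run from -0.28 for the 5 fibroblast markers to 0.13 for the clustered histones; ZNHIT3, at -1.93, is off the axis.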

How the data were processed

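Total RNA was depleted of ribosomal RNA with Ribo-Zero and made into libraries with the NEBNext Ultra kit, per the labels' protocols. The authors deposited 1 table of FPKM, fragments scaled to transcript length and library size, with a column per library. The unit comes from the table's name, and the submitters' processing notes name TopHat2, STAR, Cufflinks 2.2.1 and hg38 without roles. Annotation, strand use and scaling between libraries are not given in the sources used here. 0 columns lacked a sample.

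Groups and replicate numbers came from titles. The values were used as log2(FPKM + 1), which understates changes of low genes. Genes with a mean of at least 1 FPKM over 18 libraries were fitted in limma 3.58.1 (R 4.3.3) with 6 group means, trended empirical Bayes moderation and Benjamini-Hochberg adjustment, with a threshold of 0.05. The fit was tested on simulated data. Named genes are ZNHIT3, each gene past the threshold, and the 10 higher and 10 lower separated genes with the smallest p that did not pass; 1 of the 10 past the threshold is not reported here. Lists are described without tests, and members and lists were chosen with earlier results of these data known. Coordinates are from GENCODE 29 on GRCh38, the build that hg38 names, which placed 28 of the 30 named genes by symbol. Alternatives were another pseudocount, filter, scaling, weights, moderation, replicate block and sets of libraries. Recovery of reads was not attempted because FPKM steps give only relative depth. The interval of a count could not be given, as the absolute depth is unknown.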

Additional observations from a re-analysis of the deposited data

Results flagged for a closer look

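For STK19 and ZNHIT3 the difference between deletion and WT was not the same on both days, as tested by the interaction term in limma. The interaction was 4.07 for STK19 (adjusted p = 1.9e-10), which was listed at 0 in all 3 deletion libraries of day 0 and had 3.24 to 3.83 FPKM in those of day 18, with WT the other way round. It was -1.10 for ZNHIT3 (adjusted p = 1.1e-05), which was lower in all 3 deletion libraries on both days. With 3 libraries per group, single libraries were not tested for standing apart.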

How the results depend on the processing

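The count of 10 genes between deletion and WT at day 18 became 23 with a pseudocount of 0.1, 16 without a filter, 6 with a mean FPKM of at least 5, 26 with quantile normalization (10 higher, 16 lower) and 95 with array weights. It became 2 with only the 6 libraries compared, 2 with only the 9 libraries of day 18 and 2 when the log2 change also had to reach 1. Leaving out 1 of the 6 libraries gave 2 to 4, and leaving out C14R replicate 1 of day 18, an alternative added after seeing the data, gave 51. Median-of-ratios scaling gave 13 (8 higher, 5 lower against 5 and 5), and small RNA genes left out with rescaling gave 9. The 2 genes of the interaction (deletion by day) became 1 with a mean FPKM of at least 5, which leaves STK19 untested, and 6 with array weights. ZNHIT3 kept its direction and passed in all settings, with log2 changes of -2.21 to -1.91. Deviations of same-numbered deletion and WT libraries correlated at 0.01, 0.001 and 0.13 for replicates 1, 2 and 3. The highest correlations of these WT libraries with a deletion library of another number were 0.09, 0.0006 and -0.02. Whether same-numbered libraries share more than a number was not settled by these values. The replicate block gave 10 genes (3 higher, 7 lower), 4 of them shared, and 3 for the interaction. None of the 30 named genes changed direction in any setting. Other tested genes were not followed singly, and counts of signs within lists moved. The 82 tested cytosolic ribosomal protein genes had 46 positive and 36 negative changes without WT replicate 3, against 68 and 14 as reported. The medians of 8 lists took both signs over the settings, among them box C/D snoRNP, ribosome biogenesis, S-type and collagen genes. The cause of these shifts was not tested. At an unadjusted p of 0.05 the counts ranged over the settings from 5 to 16 for higher proliferation genes (13 as reported), 8 to 26 for higher histones (16), 3 to 8 for higher synaptic vesicle genes (6), 6 to 15 for higher maturation genes (10) and 7 to 15 for lower endoplasmic reticulum chaperones (12). List medians of proliferation genes stayed between 0.10 and 0.14 and those of endoplasmic reticulum chaperones between -0.10 and -0.08. Without counts, depth limits low genes in an unknown way.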

Other observations

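Large log2 changes without a low adjusted p were mostly values of single libraries. Besides ZNHIT3 and STK19, 8 genes had an absolute log2 change of at least 1, and of all 10 such genes, 8 were listed at 0 in at least 1 of the 6 libraries. MIR3180-5 had 1276 FPKM in deletion replicate 2 and 0 in the other 5 libraries, and SNORA73B had 455 FPKM in the same library alone. RNA18S5, an 18S ribosomal RNA gene, had 18.3 FPKM in deletion replicate 3 and at most 0.27 in the others. The genes named here were chosen after their values were seen.

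DLK1 and LINC00152 had values in nearly all libraries. DLK1, an imprinted gene for a Notch-related membrane protein of neuroendocrine cells, had 58.4, 24.5 and 24.1 FPKM in WT, 89.1, 55.8 and 68.1 in deletion libraries and 119.5, 34.0 and 149 in C14R libraries (deletion against WT: log2 change 1.07, SE 0.40, limma adjusted p = 0.32). WT replicate 1 lay above the lowest deletion library. LINC00152, a long noncoding RNA, had 3.63, 3.07 and 1.495 FPKM in WT and 0, 0.54 and 1.16 in deletion libraries (log2 change -1.27, SE 0.34, limma adjusted p = 0.19), without overlap.

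Collagens, a list chosen after values were seen, had changes in both directions, none past the threshold. Of 18 tested, 2 were higher (COL9A2, with 5.58 ± 0.19 FPKM in WT and 7.07 ± 0.37 in deletion libraries, and COL17A1) and 4 lower (COL3A1, COL4A1, COL1A1 and COL11A1) at an unadjusted p of 0.05. COL4A1, a basement membrane chain, had 2.04 ± 0.16 and 1.51 ± 0.13 FPKM, and the median of the list was 0.03, from -0.02 to 0.07 over the settings. The 2 became 1 without deletion replicate 1.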
